A study of Rattus norvegicus with 2 samples.

Results

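Solute carriers are membrane proteins that move nutrients, ions and metabolites across the plasma membrane and the membranes of organelles. The genes described here are those whose symbol follows the Slc naming pattern and whose level reached 10 counts per 1000000 (CPM) in at least 1 of 2 single-cell RNA sequencing libraries of IEC-6, a rat line of epithelial cells taken from the small intestine. Of 341 genes with such a symbol, 129 reached that level, out of 18256 genes listed for either library and 8550 at the same minimum. The level alone chose them, so that a gene that passed in 1 library only was bound to be higher there. The minimum was reached in both libraries by 108 genes, in the TNF-labelled library only by 12 and in the control library only by 9. Just inside it lay Slc26a8 and Slc2a13, each at 10.1 CPM under the TNF label, and just outside lay Slc30a3 at 9.93 CPM in the TNF-labelled and Slc41a3 at 9.67 CPM in the control library.

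Cells of the TNF group had been exposed to recombinant rat tumor necrosis factor (TNF), an inflammatory cytokine, at 100 ng/mL for 72 hours in each of 10 cycles, and control cells received phosphate-buffered saline over 10 treatments. Both were grown in high-glucose medium with serum and insulin, frozen, and thawed before library preparation. Each group is 1 library of 1 cell line, with 3457 cells and 14604393 counts for TNF and 5712 cells and 24207943 counts for control, so the differences below have no replicate check, and conditions could not be tested against each other. The 2 barcode lists had 24 barcodes in common. Intervals in parentheses are at 95% and hold for counting error alone. They are exact Poisson for a level, exact conditional binomial for a ratio and exact Clopper-Pearson for a share of cells. Ratios are TNF-labelled over control. Sample titles also carry different prefixes, so a difference of preparation cannot be told apart from the treatment. Of 6 genes known to be induced by TNF that reached the minimum, picked with their values known, 4 were at least 2-fold lower in the library labelled TNF and 1, Tnfaip3, was 2.60 times higher. Ccl2 stood at 60.9 against 969.8 CPM and Nfkbia at 111.5 against 625.6 CPM. Directions below are therefore those of the library labelled TNF. The labels do not state if the cytokine was present up to freezing, and an exchange of the labels, which would invert every ratio, was not tested.

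The cells carried few signs of mature gut lining. Krt8, a keratin of simple epithelia, had 32032 and 59461 counts, whereas Epcam, an epithelial adhesion gene, had 4 counts in each library. The 7 epithelial markers found summed to 2571 and 3115 CPM, most of it Krt8 at 2193 and 2456 CPM. Cdh1, another epithelial adhesion gene, was at 313.1 and 423.7 CPM, and Krt18 and Spint2 had ratios of 0.290 and 0.262. Mesenchymal markers were present too, at a sum of 2116 and 3223 CPM, most of it Vim at 1681 and 2810 CPM. Pdgfrb had 1 and 6 counts and Pdgfra 0 and 16. Prrx1 was 35.2 times higher and Col3a1 had a ratio of 0.103. The part of these markers in the differences below was not tested. None of the 8 marker genes found for enterocytes, the absorptive cells of the gut, reached 10 CPM, and their sum was 7.87 against 14.3 CPM. Carriers that define absorption in the intestine were as scarce. Of 17 genes of this kind found, Slc11a2, the iron carrier DMT1, was the 1 that reached the minimum, at 21.4 against 18.9 CPM. Slc5a1, the sodium-coupled glucose carrier SGLT1, had 0 counts in the TNF-labelled library, which at a limit of 3 counts allows up to 0.205 CPM, and 12 in the control library. Slc15a1, the dipeptide carrier, had 3 and 11 counts, Slc6a19, the neutral amino acid carrier of the brush border, had 1 in each, and Slc10a2, the ileal bile acid carrier, had 1 and 8. Slc9a3, the brush border sodium-proton exchanger, had 2 and 4 counts. Markers of white blood cells summed to 1.58 and 5.91 CPM and those of endothelium to 0.274 and 0.909 CPM.

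Solute carriers fall into families by sequence, and members of a family often share a substrate class but sit in different membranes. Several Slc7 proteins are amino acid exchangers that work as light chains paired with a heavy chain. Most Slc25 proteins span the inner mitochondrial membrane, and many Slc35 proteins bring sugar nucleotides into the Golgi. Substrate classes are textbook assignments for each gene. The pattern also takes 4 genes that are no carriers.

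Across the 129 genes, 7 had a ratio of at least 2 and 11 a ratio of at most 0.5, or 18 past 2-fold. That is 5.43% and 8.53% of the genes, beside 5.27% and 8.19% of all 8550 genes at the same minimum and 13.5% in either direction, shares close to that background. All 129 genes together came to 8791 against 8737 CPM, and the median log2 ratio was -0.11 against -0.07 for all 8550. The counting interval stayed entirely past 2-fold in 4 of those 7 and in 4 of those 11, as in 3.56% and 5.17% of all genes. With TMM factors the median over all genes went from -0.07 to 0.10 (log2), and the split to 11 higher and 3 lower genes, or 78.6% higher among those past 2-fold against 38.9%. Over all genes that share went from 39.2% to 62.8%, with 8.77% of genes higher and 5.19% lower under TMM factors. The classes differed in where their medians lay, from -0.50 for the nucleotide sugar family to 0.25 for ion carriers among the classes of at least 8 genes.

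**Figure D1:**
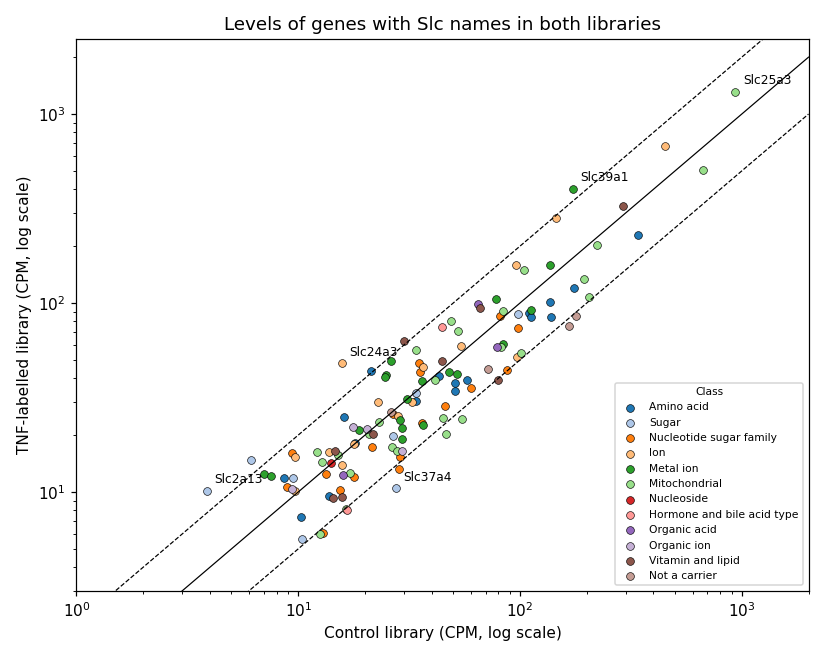
Levels of the genes in the control library (horizontal, CPM on a log scale) and the TNF-labelled library (vertical, CPM on a log scale), coloured by substrate class. A few genes not reported here are not drawn. The solid line marks equal levels and the dashed lines 2-fold differences. Most points lie between the dashed lines, and Slc39a1, at 402.6 against 172.8 CPM, lies above the upper one.

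**Figure D2:**
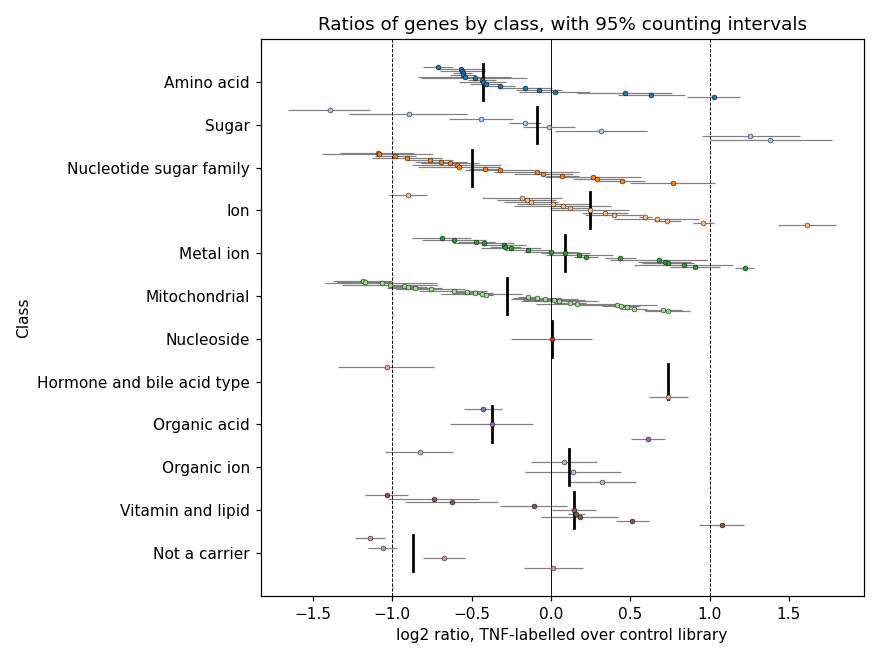
The log2 ratio of TNF-labelled over control library for the genes drawn, grouped by class, with 95% counting intervals as grey bars and the median over all genes of the class as a black line. Dashed lines mark 2-fold. Amino acid carriers (median -0.43) lie mostly left of zero and ion carriers (median 0.25) mostly right of it.

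**Figure D3:**
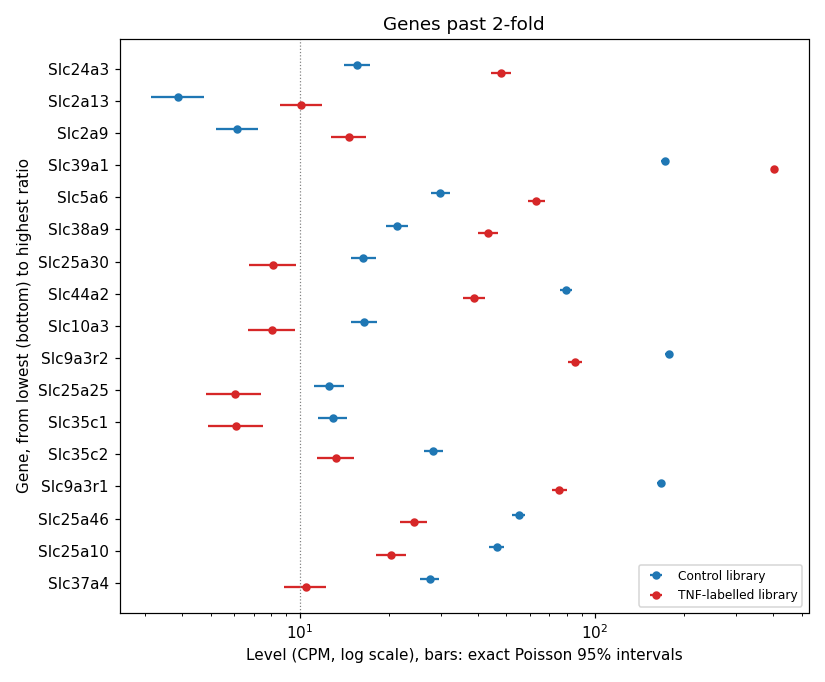
Levels (CPM, log scale) of the genes past 2-fold that are reported here, in the control (blue) and TNF-labelled (red) library, with exact Poisson 95% intervals, ordered from the lowest ratio at the bottom to the highest at the top. The dotted line marks the 10 CPM minimum. Slc39a1 has narrow intervals at 402.6 against 172.8 CPM.

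Amino acid carriers were mostly lower in the TNF-labelled library. Of 17 genes, 13 had a ratio below 1, yet 0 were past 2-fold in that direction and 1, Slc38a9, was past it upward. Their median log2 ratio was -0.43, against -0.07 for all genes, and with TMM factors -0.26 against 0.10, with 5 above 1 in place of 4. Scaled by library totals, all 6 genes of the heteromeric exchangers and their cationic relatives lay below 1. Slc3a2 (ENSRNOG00000018487), the heavy chain CD98 that carries the light chains to the cell surface, stood at 84.1 CPM (79.5 to 88.9) against 137.8 CPM (133.2 to 142.6), a ratio of 0.610 (0.571 to 0.652). Its levels did not overlap between the clusters of cells found within each library, at 78.4 to 109.4 against 120.8 to 153.5 CPM.

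Among the light chains, Slc7a5, the large neutral amino acid exchanger LAT1, was at 37.9 against 51.1 CPM (ratio 0.742, 0.670 to 0.821). Slc7a11, the cystine-glutamate exchanger xCT that feeds glutathione synthesis, was at 84.3 against 112.2 CPM (ratio 0.751, 0.702 to 0.804), and Slc7a6 had a ratio of 0.675. Slc7a11 varied more between clusters than between libraries, from 40.2 to 114.1 CPM among TNF-labelled and from 56.7 to 182.6 CPM among control clusters. Slc7a2, which takes up arginine and lysine, was at 100.9 against 136.2 CPM and spread from 33.4 to 173.4 CPM over the TNF-labelled clusters and 53.8 to 300.4 CPM over the control clusters. Slc7a1, another arginine carrier, stood at 41.1 and 43.3 CPM, with an interval of the ratio of 0.858 to 1.05 that includes 1. Its ratio stayed below 1 under 6 of 8 alternative treatments of the data. It was 1.06 with TMM factors and 1.18 in cells thinned to 1700 counts.

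Several sodium-coupled uptake genes lay on the same side. Slc38a2, the small neutral amino acid carrier SNAT2, was at 230.4 CPM (222.7 to 238.3) against 338.9 CPM (331.6 to 346.3), a ratio of 0.680 (0.653 to 0.708). With every cell thinned to 1700 counts, a Slc38a2 count was found in 34.3% (32.5 to 36.1) of the 2728 cells labelled TNF, against 43.7% (42.3 to 45.1) of the 4753 controls, and without thinning 55.7% and 64.9%. Slc6a6, the taurine carrier, was at 119.8 against 175.9 CPM (ratio 0.681, 0.644 to 0.720). Slc1a3, a glutamate carrier best known from glial cells, was at 88.2 against 110.2 CPM, with clusters that overlapped widely.

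The 3 genes with ratios well above 1 all belong to the Slc38 family, which also holds Slc38a2. Slc38a9, which senses arginine in the lysosome for the growth kinase complex mTORC1, was at 43.6 CPM (40.2 to 47.1) against 21.4 CPM (19.6 to 23.3), a ratio of 2.04 (1.81 to 2.29). That ratio was 1.86 without the TNF-labelled cluster in which the gene was highest. Slc38a7, the lysosomal glutamine carrier, was at 11.9 against 8.63 CPM (ratio 1.38), and Slc38a6 at 24.9 against 16 CPM (ratio 1.55). Slc15a4, another lysosomal carrier, of peptides and histidine, was at 7.40 against 10.3 CPM. Slc38a7 reached the minimum in the TNF-labelled library only and Slc15a4 in the control library only, which fixed their directions. Slc1a5, the glutamine exchanger ASCT2, was under the minimum at 6.37 and 7.89 CPM.

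Atf4, a transcription factor that raises amino acid carriers and synthesis enzymes when amino acids run short, had a ratio of 0.478 (2218 against 7696 counts). In the list of 19 amino acid and glutathione response genes it was the 1 past 2-fold, with 0 higher, beside 13.5% of all 8550 genes. The median log2 ratio of the list was -0.07. Genes of the list lay on both sides. Asns and Psat1, amino acid synthesis enzymes, had ratios of 0.511 and 0.522, while Psph, another such enzyme, had 1.68. Ddit3, a stress factor, had 1.49. Sesn2 and Trib3 had 1.46 and 1.255, and Phgdh and Shmt2 had 0.791 and 0.627. The letters TGATGNAA, the composite element that ATF4 binds with a partner, were looked for on both strands of promoter windows from 250 bases before to 50 after the start, taken from RefSeq in the rat build GRCr8. Windows were at hand for 103 of the 129 genes. The element stood in 4 of these, or 3.88%, against 3.82% of 27457 windows of all genes and 1.77% of 6400 windows of genes at the minimum level. Of those 4, 2 belong to amino acid carriers and are shown because they are the places in this class where the letters occur. Slc7a1 (chr12:11664238-11664537, plus strand) holds them at -30 and Slc1a4 (chr14:98761513-98761812, minus strand) at -235 on the opposite strand, counted from the start of the gene, with the element in capitals.
Slc7a1: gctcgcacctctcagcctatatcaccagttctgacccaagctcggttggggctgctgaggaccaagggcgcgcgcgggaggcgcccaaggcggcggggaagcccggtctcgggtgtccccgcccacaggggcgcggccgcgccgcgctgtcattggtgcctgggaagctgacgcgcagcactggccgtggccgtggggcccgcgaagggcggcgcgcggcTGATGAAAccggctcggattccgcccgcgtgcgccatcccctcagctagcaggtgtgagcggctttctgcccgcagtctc
Slc1a4: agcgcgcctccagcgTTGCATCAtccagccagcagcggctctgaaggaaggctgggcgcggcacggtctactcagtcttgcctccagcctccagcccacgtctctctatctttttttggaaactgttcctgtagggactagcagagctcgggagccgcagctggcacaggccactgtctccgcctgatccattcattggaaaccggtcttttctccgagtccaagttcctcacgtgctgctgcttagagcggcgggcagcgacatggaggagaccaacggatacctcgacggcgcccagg
Slc1a4, the alanine, serine and cysteine exchanger ASCT1, stood at 18.3 and 18 CPM (ratio 1.02, 0.870 to 1.19). A match of letters is a description of the sequence, and nothing was measured about binding.

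Sugar carriers showed no common side. Of 8 genes, 3 were past 2-fold, with 2 higher and 1 lower, beside 5.27% higher and 8.19% lower among all 8550 genes. Their median log2 ratio was -0.09, and 0.15 with TMM factors. Slc37a4 (ENSRNOG00000011361), which imports glucose 6-phosphate into the endoplasmic reticulum for release of free glucose, was at 10.5 CPM (8.88 to 12.3) against 27.6 CPM (25.5 to 29.7), 2.63-fold lower (2.20 to 3.16), and had the lowest ratio among the 129. Its levels did not overlap between clusters, at 5.25 to 12.7 against 23.5 to 34.8 CPM. Slc2a13, a proton-coupled inositol carrier, was at 10.1 against 3.88 CPM (ratio 2.61, 2.00 to 3.42), and Slc2a9, a urate carrier of the glucose carrier family, at 14.7 against 6.16 CPM (ratio 2.39, 1.93 to 2.97). Both reached the minimum in the TNF-labelled library only. Both were under 2-fold when each cell weighed the same, at 1.97 and 1.91, and in cells without a Top2a or Mki67 count, at 1.897 and 1.785. In thinned cells Slc2a13 was at 1.908 and Slc2a9 at 2.958.

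Slc2a1, the glucose carrier GLUT1 that supplies most cultured cells, stood at 87.1 CPM (82.4 to 92.0) and 97.5 CPM (93.6 to 101.5), a ratio of 0.893 that became 1.00 with TMM factors. Slc2a3, the high-affinity GLUT3, had 0 and 1 counts. In the thinned cells a Slc2a1 count was held by 14.9% in both libraries. Of 15 genes of sugar and lactate metabolism, 3 were past 2-fold, 2 of them lower, beside 13.5% of all 8550 genes in either direction. The median log2 ratio of the 15 was -0.67. Pgam1 and Gapdh, glycolytic enzymes, had ratios of 0.399 and 0.474. Ldhb, a lactate dehydrogenase subunit, was 7.47 times higher at 24.4 against 3.26 CPM, and reached the minimum in the TNF-labelled library only. Ldha, the more abundant subunit, was lower at 1035 against 1647 CPM (ratio 0.628). Slc16a1, the lactate and pyruvate carrier MCT1, was at 58.7 against 79.0 CPM (ratio 0.743, 0.685 to 0.806), whereas Slc16a7, the related carrier MCT2, was at 98.7 against 64.6 CPM (ratio 1.53, 1.42 to 1.64). Bsg, the chaperone that brings MCT1 to the cell surface, had a ratio of 1.34, and Emb, the relative that pairs with MCT2, one of 0.206 from 37 against 298 counts. Slc16a3, the lactate exporter MCT4, had 1 and 4 counts.

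Genes of the nucleotide sugar family were mostly lower. Of 18 genes, 13 lay below 1 and 2, or 11.1%, were past 2-fold, both lower, beside 8.19% lower among all 8550 genes. Their median log2 ratio was -0.50, or -0.33 with TMM factors. The 2 past 2-fold are Slc35c1, the GDP-fucose carrier of the Golgi, at 6.09 against 12.9 CPM (2.12-fold lower, 1.67 to 2.72), and its relative Slc35c2 at 13.3 against 28.3 CPM (2.13-fold lower, 1.82 to 2.52). Both lay under 2-fold with TMM factors, at ratios of 0.528 and 0.525. Slc35c1 reached the minimum in the control library only and so was bound to be lower. Slc35a1, which imports CMP-sialic acid, stood at 85.7 and 81.6 CPM (ratio 1.05, 0.977 to 1.13), and Slc35a2, the UDP-galactose carrier, at 48.0 against 35.2 CPM. Slc35b1, which brings ATP into the endoplasmic reticulum, was at 73.8 against 98.3 CPM. Slc35d2 ranged from 4.61 to 31.8 CPM over the TNF-labelled clusters, the lowest from 4 counts, and from 25 to 44.3 CPM over the control clusters.

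Ion carriers leaned the other way from amino acid carriers, apart from those of protons and bicarbonate. Of 17 genes, 12 had a ratio above 1. Past 2-fold was 1, or 5.88%, upward, beside 5.27% higher among all 8550 genes. The median log2 ratio was 0.25, against -0.07 for all genes. With TMM factors 14 lay above 1, and these medians were 0.41 and 0.10. Slc12a2 (ENSRNOG00000015971), the sodium-potassium-chloride carrier NKCC1 that loads epithelial cells with chloride for secretion, was at 681 CPM (668 to 695) against 450.9 CPM (442.5 to 459.4), a ratio of 1.51 (1.47 to 1.55). Its clusters did not overlap, at 516.6 to 753.6 against 413.1 to 477.7 CPM, and in thinned cells 63.0% (61.1 to 64.8) against 51.9% (50.5 to 53.3) held a count, or 80.3% and 70.9% without thinning. Its relatives Slc12a4 and Slc12a7, which export potassium and chloride, had ratios of 0.900 and 0.918.

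Phosphate and calcium carriers were higher as well. Slc20a1 (ENSRNOG00000018567), the sodium-phosphate carrier PiT1, was at 283.5 CPM (275.0 to 292.3) against 145.7 CPM (141.0 to 150.6), a ratio of 1.95 (1.86 to 2.04) that passed 2-fold, at 2.18, with TMM factors. Every TNF-labelled cluster, at 232.6 to 322.5 CPM, lay above every control cluster, at 122.8 to 159.7 CPM. Its relative Slc20a2 was at 30.1 against 22.9 CPM. Slc8a1, the sodium-calcium exchanger NCX1, was at 159.5 CPM (153.1 to 166.1) against 95.8 CPM (92.0 to 99.8), a ratio of 1.66. Its clusters overlapped. Over the 36 pairings of a TNF-labelled with a control cluster its ratio ran from 0.392 to 3.22, with 28 above 1.

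Slc24a3, a potassium-dependent sodium-calcium exchanger, was at 48.1 CPM (44.6 to 51.8) against 15.7 CPM (14.2 to 17.4), a ratio of 3.06 (2.70 to 3.48), and 1 cluster held most of these counts. A TNF-labelled cluster of 307 cells held 393 of its 702 counts there, at 277 CPM (250.3 to 305.8), where 42.3% of cells held a count. The other TNF-labelled clusters lay at 6.91 to 34.8 CPM and the control clusters at 4.06 to 29.8 CPM. Without that cluster the ratio was 1.49. The 8 proton and bicarbonate carriers of the class lay on both sides, with 5 ratios above 1, 3 below and a median log2 ratio of 0.04. Their summed level was 237.95 against 275.41 CPM. Among them Slc4a7, a sodium-bicarbonate carrier, was at 52.1 against 97.2 CPM (ratio 0.536, 0.493 to 0.582).

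Genes that drive or steer these carriers gave a mixed picture. Of 16 partner genes at the minimum, 3 were past 2-fold, all lower, beside 8.19% lower among all 8550 genes. Emb and Sgk1 of these reached the minimum in the control library only. The median log2 ratio of the 16 was -0.37. Atp1b1 and Atp1b3, beta subunits of ATP-driven ion pumps, had ratios of 0.652 and 0.506. Sgk1, a kinase that raises the surface amount of several carriers, had 108 against 1136 counts (ratio 0.158). Nptn, a further relative of Bsg, had a ratio of 0.437. Wnk1, a kinase that controls chloride carriers of the Slc12 family, had 1.07.

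Past 2-fold were also 2 scaffolds named after an ion carrier. Slc9a3r1 and Slc9a3r2 encode NHERF proteins, which tether the brush border exchanger Slc9a3 and other membrane proteins to the cell cortex. Slc9a3r1 was at 75.7 against 166.9 CPM (2.20-fold lower, 2.06 to 2.36), with clusters at 71.7 to 89.8 against 135.5 to 250.3 CPM. Slc9a3r2 was at 85.3 against 178.1 CPM (2.09-fold lower, 1.96 to 2.23). With TMM factors both were under 2-fold, at ratios of 0.508 and 0.537. Without the 4 genes that are not carriers, 16 of 125 were past 2-fold, 7 upward and 9 downward. Ezr, which binds both scaffolds to actin, had a ratio of 0.737.

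Metal ion carriers held a strong single difference. Slc39a1 (ENSRNOG00000016344), the plasma membrane zinc importer ZIP1, was at 402.6 CPM (392.4 to 413.0) against 172.8 CPM (167.6 to 178.1), a ratio of 2.33 (2.24 to 2.43). Its summed level differed little among the clusters of a library, at 370.7 to 438.8 and 146.5 to 186.0 CPM. In thinned cells 48.1% (46.2 to 49.99) against 26.4% (25.1 to 27.6) held a count, and without thinning 66.6% and 44.7%. No cell type that should lack the gene was present, so the share due to free RNA was not measured. Its promoter window (chr2:178000869-178001168, plus strand) is shown because it holds, at -212 and -14, the letters GGG, any 2 bases, TT, any base and CC, one way of writing a site for NF-kB, the transcription factor that TNF signalling activates. The window of Slc35c1 (chr3:98883909-98884208, minus strand), a gene that was lower, holds 2 as well, at -189 and, on the opposite strand, at -111. Capitals mark the matches.
Slc39a1: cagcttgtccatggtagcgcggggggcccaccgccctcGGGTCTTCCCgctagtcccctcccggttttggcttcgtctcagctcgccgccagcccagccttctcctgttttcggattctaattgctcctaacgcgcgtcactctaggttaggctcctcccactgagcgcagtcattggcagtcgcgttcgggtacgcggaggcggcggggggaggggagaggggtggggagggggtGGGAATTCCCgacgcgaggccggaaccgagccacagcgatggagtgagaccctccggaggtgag
Slc35c1: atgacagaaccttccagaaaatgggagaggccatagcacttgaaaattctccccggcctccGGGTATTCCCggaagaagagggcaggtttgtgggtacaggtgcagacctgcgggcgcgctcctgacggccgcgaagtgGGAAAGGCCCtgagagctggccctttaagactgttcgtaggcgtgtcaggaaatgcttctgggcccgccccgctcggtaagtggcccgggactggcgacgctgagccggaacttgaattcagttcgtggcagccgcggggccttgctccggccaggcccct
Among the 103 windows 5 held such letters, or 4.85%, against 4.95% of all windows and 5.61% of those at the minimum level. The other 3 belong to Slc11a2, Slc22a18 and Slc39a9, with ratios of 1.13, 1.06 and 1.60. The search covered both strands.

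The 19 metal ion carriers, Slc39a1 included, spread to both sides, with 11 ratios above 1, no other gene past 2-fold and a median log2 ratio of 0.09, or -0.01 without the 5% deepest cells. Slc39a14, which imports zinc, iron and manganese and is known to be raised in inflammation, was at 49.2 CPM (45.6 to 52.9) against 26.2 CPM (24.2 to 28.3), a ratio of 1.88 (1.69 to 2.09) that lay between 2.01 and 2.16 under 3 of 8 alternative treatments of the data. Slc39a10, Slc39a11 and Slc39a9, further zinc carriers of the same family, had ratios of 1.79, 1.67 and 1.60. Slc39a8 and Slc39a13 lay on the other side at 0.722 and 0.621, and Slc39a7, which releases zinc from the endoplasmic reticulum, stood at 159.2 and 136.5 CPM. Of the zinc exporters, Slc30a1 of the plasma membrane was under the minimum at 5.96 against 3.47 CPM, and Slc30a6 of the secretory pathway had a ratio of 1.64.

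Copper carriers were lower, with Slc31a1, the importer CTR1, at 19.2 against 29.3 CPM (ratio 0.655, 0.568 to 0.753) and Slc31a2 at 21.8 against 29.3 CPM. Of 11 zinc and iron handling genes at the minimum, 1 was past 2-fold, beside 13.5% of all 8550 genes. It was Heph, an iron oxidase of gut cells, with a ratio of 0.411. Mt2A, the metallothionein that buffers zinc, had a ratio of 1.5, and Tfrc, the transferrin receptor, 0.704.

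Mitochondrial carriers were the largest class and lay on both sides. The class also takes in Slc25a17, a family member of the peroxisome. Of 26 genes, 10 had a ratio above 1 and 4, or 15.4%, were past 2-fold, all lower, beside 8.19% of all 8550 genes. Of these 4, 2 reached the minimum in the control library only and so were bound to be lower. The median log2 ratio was -0.28, or -0.11 with TMM factors, which put 13 above 1. Their summed level was 3077 against 3108 CPM. Slc25a3 (ENSRNOG00000008289), which brings in phosphate for ATP synthesis, was at 1307 CPM (1289 to 1326) against 936.7 CPM (924.6 to 949.0), a ratio of 1.40 (1.37 to 1.42). Slc25a4 and Slc25a5, the carriers that exchange ADP for ATP, stood at 504.5 against 669.5 CPM (ratio 0.754, 0.733 to 0.775) and at 201.9 against 222.8 CPM (ratio 0.906, 0.866 to 0.948). The ratio of Slc25a5 was 1.02 with TMM factors. These 2 genes are close relatives, and how shared reads were counted is not stated in the labels.

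The 4 genes past 2-fold downward serve different ends. Slc25a10, the dicarboxylate carrier, was at 20.4 CPM (18.2 to 22.9) against 46.4 CPM (43.8 to 49.2), 2.28-fold lower. Slc25a46, an outer membrane protein of mitochondrial fusion and fission, was at 24.4 CPM (21.9 to 27.0) against 55.1 CPM (52.2 to 58.1), 2.26-fold lower, with clusters at 18.4 to 28.2 against 50.5 to 65.7 CPM. Both kept a ratio under 0.5 in each of 9 alternative treatments. Slc25a25, a calcium-regulated ATP-Mg carrier, was at 6.03 against 12.6 CPM and Slc25a30, an uncoupling protein relative, at 8.15 against 16.4 CPM. These are the 2 that reached the minimum in the control library only. Both lay under 2-fold with TMM factors, at 0.536 and 0.555.

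Acid and amino acid carriers of the inner membrane went both ways. Slc25a12 and Slc25a13, the aspartate-glutamate carriers of the malate-aspartate shuttle, had ratios of 1.67 (1.51 to 1.84) and 1.44 (1.36 to 1.52), whereas Slc25a11, the oxoglutarate-malate carrier of the same shuttle, was at 54.2 against 101.0 CPM (ratio 0.536, 0.494 to 0.581). Slc25a1, which exports citrate for fatty acid and sterol synthesis, was at 134.7 against 194.8 CPM. The glutathione carriers also parted, with Slc25a39 at 108.1 CPM (102.9 to 113.6) against 205.6 CPM (200 to 211.4), a ratio of 0.526, and its close relative Slc25a40 at 80.2 against 49.1 CPM, a ratio of 1.63 (1.51 to 1.77). Outside the Slc names, Ucp2, an uncoupling protein of the same family, had a ratio of 0.437, and Vdac3, a pore of the outer membrane, 1.66. Of 13 such transport genes, 3 were past 2-fold, all lower, beside 8.19% lower among all 8550 genes. Among these 3, Cpt2 reached the minimum in the control library only.

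Nucleoside carriers were scarce. Slc29a3, the lysosomal nucleoside carrier ENT3, was the 1 gene of this class at the minimum, at 14.2 and 14.1 CPM (ratio 1.00, 0.840 to 1.20). Slc29a1, the main nucleoside carrier of the plasma membrane, was at 4.93 against 8.01 CPM, Slc28a2 had 48 and 46 counts, and Slc29a2 had 0 and 1.

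The hormone and bile acid type held genes on both sides. Slc10a7, a bile acid carrier relative linked to calcium handling, was at 74.6 against 44.7 CPM (ratio 1.67). Slc10a3 was at 8.08 against 16.6 CPM (2.05-fold lower, 1.67 to 2.54), or a ratio of 0.547 with TMM factors. It reached the minimum in the control library only and so was bound to be lower. Among carriers of other families, Slco3a1, an organic anion carrier, was 2.82 times and Abca1, a cholesterol exporter, 2.17 times higher, and Abcb1a, a drug efflux pump, 2.39-fold lower.

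Vitamin and lipid carriers included 1 gene past 2-fold on each side. Slc5a6, which takes up biotin and pantothenate, was at 63.2 CPM (59.2 to 67.4) against 29.95 CPM (27.8 to 32.2), a ratio of 2.11 (1.91 to 2.33) that stayed between 2.01 and 2.36 under 9 alternatives. Its clusters lay at 52.2 to 77.8 against 22.0 to 32.3 CPM. Its window (chr6:31040150-31040449, plus strand) is shown because the letters ACGTG, the core that hypoxia factors and E-box factors read, occur on both strands at 2 places, written CACGTG from -189 and from 7, in capitals.
Slc5a6: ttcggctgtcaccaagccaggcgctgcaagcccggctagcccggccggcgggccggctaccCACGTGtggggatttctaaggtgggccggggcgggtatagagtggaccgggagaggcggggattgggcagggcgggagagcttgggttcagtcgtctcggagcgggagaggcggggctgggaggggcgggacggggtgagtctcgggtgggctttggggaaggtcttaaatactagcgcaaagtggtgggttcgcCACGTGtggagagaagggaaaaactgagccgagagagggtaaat
These letters were in 30.1% of the members' windows, 19.7% of all windows and 27.4% of those at the minimum level. A further 2 elements were searched on both strands. TGCNCNC, a loose spelling of the metal response element that also takes other letters, was in 62.1% of the members' windows against 60.8% of those at the minimum level. TGACNNNGC, the antioxidant response element, was in 17.5% against 15%. The median GC content of the windows was 63.0% for the members and 61.7% for genes at the minimum level.

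Slc44a2, a choline carrier, was at 39.0 against 79.9 CPM (2.05-fold lower, 1.87 to 2.25), while its relative Slc44a1 stood at 324.3 and 290.5 CPM (ratio 1.12). The ratio of Slc44a2 was 0.547 with TMM factors. Slc48a1, a heme carrier of endosomes, was at 94.3 against 66.1 CPM (ratio 1.43), and the ascorbate carrier Slc23a2 and the fatty acid carrier Slc27a1 had ratios of 0.648 and 0.600. Of the 4 organic ion carriers, Slc6a8, the creatine carrier, was at 16.6 against 29.4 CPM (ratio 0.563, 0.485 to 0.653, or 0.401 in thinned cells) and Slc22a5, the carnitine carrier, at 22.2 against 17.7 CPM (ratio 1.25).

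The difference between libraries held across cell clusters for a minority of genes. For 37 of the 129 genes, or 28.7%, all 6 clusters of one library lay above all 6 of the other, against 30.2% of all 8550 genes. The summed level of the 129 genes ran from 8549.9 to 9028 CPM over the TNF-labelled clusters and from 8386 to 8993 CPM over the control clusters. Within a library, Slc24a3, Slc2a13, Slc2a9, Slc7a2 and Slc35d2 were among the genes with the widest spread between clusters. Clusters also differed in depth and division, since median counts per cell ran from 1579.5 to 7643.5 and Top2a, a gene of dividing cells, from 50.6 to 1101 CPM, and their part in these spreads was not tested.

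**Figure D4:**
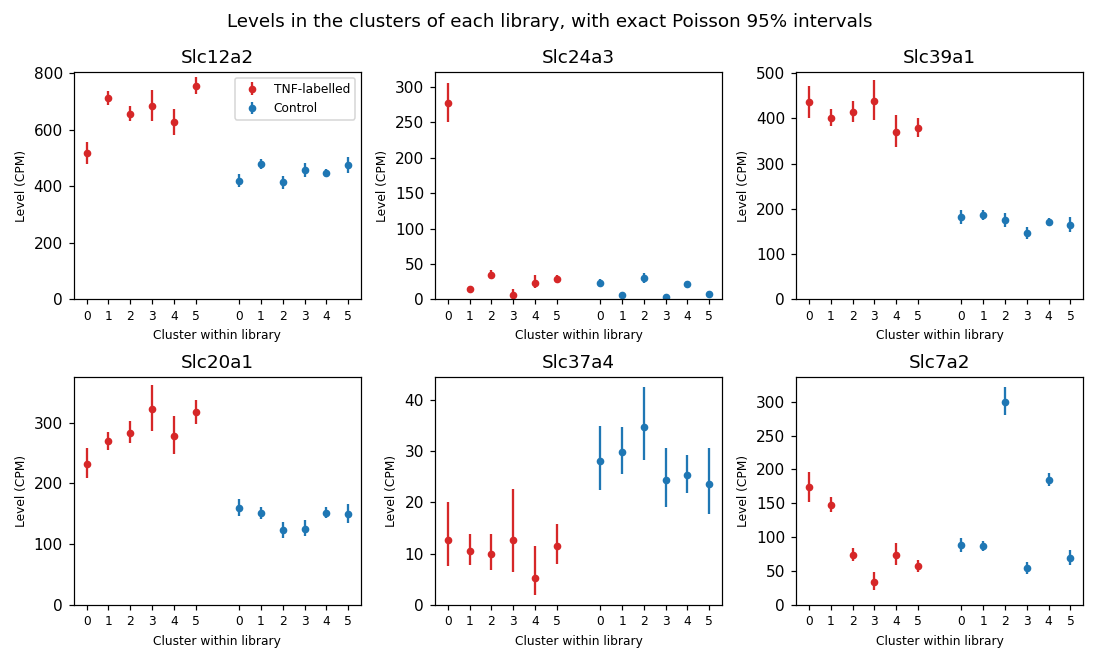
Level (CPM, linear axis from 0) of 6 genes in the 6 cell clusters found within each library, TNF-labelled in red and control in blue, with exact Poisson 95% intervals. Cluster numbers are separate for each library. Slc12a2, Slc39a1, Slc20a1 and Slc37a4 do not overlap between libraries, Slc24a3 is highest in TNF-labelled cluster 0, and Slc7a2 overlaps.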

How the data were processed

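Single-cell RNA libraries of IEC-6 cells, 1 labelled TNF and 1 control, were analysed from the matrices the authors deposited, which hold raw whole-number counts by gene and barcode. Rnor_5.0 is the build that the submitters' processing notes name. Not given in the sources used here are the aligner, counter, strand use, annotation, cell calling and whether unique molecules were counted. Overlapping genes may therefore share reads.

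Barcodes under 500 counts or 300 genes, or above 20% mitochondrial counts, were removed (3457 of 3457 and 5712 of 5713 stayed). Counts were summed per library and divided by its total, so that 1 count was worth 0.0685 CPM (TNF) and 0.0413 CPM (control). Ratios used a floor of 3 counts, and a gene was past 2-fold only with 10 CPM in either library. Levels were not divided by gene length and are compared within a gene. Thinning to 1700 counts left out 729 and 959 cells. Clusters were made in each library with scanpy 1.11.5 (2000 variable genes, 30 components, 15 neighbours, Leiden resolution 0.5), kept their numbers and were not named. Doublets were left in. TMM factors came from edgeR 4.0.16. Classes are hand assignments from textbook knowledge, and 3 symbols were added to them after the gene lists were seen. Named genes were up to 4 past 2-fold in each direction per class, a fixed set per class, the genes next to the minimum, the 6 with the widest cluster spread and up to 2 per direction of each further list. Others were chosen after their values were seen. Members and lists were chosen with earlier results of these data known. The TNF-induced genes were picked from known values. Some genes are counted in the totals but not reported here.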

Additional observations from a re-analysis of the deposited data

How the results depend on the processing

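No paired analysis was possible because each group holds 1 library. Of the 129 genes, 7 were at least 2-fold higher and 11 lower. Scaling by TMM factors gave 11 and 3 with a median log2 ratio of 0.08 in place of -0.11, a shift shared by all genes, whose median went from -0.07 to 0.10 and whose shares past 2-fold went from 5.27% to 8.77% upward and from 8.19% to 5.19% downward. A minimum of 20 CPM gave 4 and 7, as did keeping genes with 10 CPM in both libraries, an alternative chosen after seeing the data. Both leave fewer genes, 94 and 108. Under the other alternatives (totals without ribosomal and mitochondrial genes, a minimum of 5 CPM or a mean of 10 CPM, thinned cells, equal weight per cell, stricter cells, no 5% deepest cells, no Top2a or Mki67 count, a floor of 1 count) the counts were 5 to 8 and 8 to 13, and the medians -0.17 to -0.10. Of the 18 genes past 2-fold, Slc39a1, Slc5a6, Slc37a4, Slc25a10 and Slc25a46 were among those that stayed past it under all 9 alternatives run for single genes, and none of the 18 changed direction. Slc24a3 fell under 2-fold, to 1.49, without 1 cluster. A limit of 3 counts, 0.205 and 0.124 CPM, holds for a gene with 0 counts, and with 1 library per group no alternative measures the spread between cultures.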
